A study of Mus musculus with 6 samples.

Results

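Imprinted genes are described here in P19 cells, a mouse embryonal carcinoma line grown from a teratocarcinoma, as a panel of 46 genes of 19 imprinted clusters. The panel was a list of gene names, and all 46 were found among the 34745 genes in the deposited table. RNA was sequenced from 3 libraries of P19 cells treated with the peptide PDTLN1 and 3 control libraries of P19 cells without treatment, all grown in the same serum-containing medium. The labels give no dose, duration or vehicle, the titles of the treated samples hold an unexplained code (P50), and nothing in them ties the libraries to separate cultures, so each p-value rests on the spread among these 6 libraries, which may be technical. P19 is 1 cell line, and the counts do not separate the parental alleles, so imprinted expression itself was not measured.

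Imprinted genes are transcribed mainly from the maternal or the paternal copy, in most cases according to DNA methylation that was laid down at imprinting control regions in the egg or the sperm. Most lie in clusters in which a control region sets the activity of several neighbours, often through a long noncoding RNA or through binding of the insulator protein CTCF to the unmethylated copy. Many encode regulators of fetal growth, placental development and metabolism, and in early embryonic cells the marks are kept through the zinc finger protein ZFP57, its cofactor TRIM28 and the maintenance methyltransferase DNMT1.

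The libraries held 10381307 to 11663081 counts with PDTLN1 and 10450134 to 11177756 counts in control. The embryonal carcinoma marker Pou5f1, the transcription factor OCT4, averaged 504 ± 30.8 FPKM with PDTLN1 and 545 ± 12.4 FPKM in control (SD, n = 3 each). Retinas are named in the extraction protocol of the labels, but of 6 retina markers Crx, Arr3 and Opn1sw had 0 counts in every library and the summed level of the list was 0.136 to 0.245 FPKM with PDTLN1 and 0.0211 to 0.384 FPKM in control. The first principal component of log2 CPM, the count relative to the total of its library, held 35.0% of the variance and did not follow treatment: PDTLN1 library 1 lay on 1 side with control libraries 2 and 3, and PDTLN1 libraries 2 and 3 lay on the other with control library 1.

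Promoter sequences were read for the members with an entry in the RefSeq tables (build GRCm38.p6), as windows of 250 bases before to 50 bases after each start site. There were 57 windows for 38 members. The letters TGCCGC, the sequence that ZFP57 binds when its CpG is methylated, were searched on both strands, so that GCGGCA counts as a match. They occurred in 12 of 57 windows of members (21.1%) and in 3813 of 32851 windows of all genes (11.6%), and counted by gene in 11 of 38 members (28.9%) and 3527 of 27025 genes (13.1%). The windows of members held a median of 13 CpG, against 7 CpG in all windows, and were thus richer in CpG. A match describes the letters only and is no evidence of binding, and methylation was not measured.

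The 11 members with the letters were 7 strong genes (Copg2, Grb10, Mcts2, Meg3, Mest, Plagl1 and Snrpn), 2 moderate genes (Igf2 and Zim1) and 2 silent genes (Nap1l5 and Nnat), by levels given with the results. Short stretches around the letters TGCCGC or GCGGCA, in capitals, are shown for members at strong levels: Mest at chr6:30737800-30737825, Plagl1 at chr10:13090730-13090759, Snrpn at chr7:60005184-60005213, Meg3 at chr12:109540794-109540823, Grb10 at chr11:12037379-12037408 and Copg2 at chr6:30896893-30896922, each written along the strand of its gene. The Mest window held 2 matches, and the stretch shows the one farther from the start site.
Mest: ccttgcccGCGGCAttaacacatggg
Plagl1: ctggcgtgttgcGCGGCAaagcccacggca
Snrpn: gacccctgcattGCGGCAaaaatgtgcgca
Meg3: gccaggggcactGCGGCAgatttttttttc
Grb10: gggtgcggggagGCGGCAggaagggaaggg
Copg2: ccacgcccccgtGCGGCAgtgggcggagca

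Genes nested within another gene give a further contrast, because the windows of 1 strong and 2 silent genes of this kind carried the letters. Mcts2, a retrocopy that lies within H13, was strong (53.9 FPKM as the mean of the 6 libraries), Nap1l5 within Herc3 was silent (0.0179 FPKM), and Nnat within Blcap had 0 counts. The whole windows are shown with the letters TGCCGC or GCGGCA in capitals: Mcts2 at chr2:152686898-152687197 (plus strand), Nap1l5 at chr6:58907077-58907376 (minus strand) with 2 matches, and Nnat at chr2:157559828-157560127 (plus strand).
Mcts2: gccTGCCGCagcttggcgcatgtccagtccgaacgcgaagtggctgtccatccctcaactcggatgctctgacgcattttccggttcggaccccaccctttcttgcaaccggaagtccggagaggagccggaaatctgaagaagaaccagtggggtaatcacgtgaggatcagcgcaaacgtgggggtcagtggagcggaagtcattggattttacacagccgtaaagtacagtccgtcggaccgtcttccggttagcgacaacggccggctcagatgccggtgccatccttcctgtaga
Nap1l5: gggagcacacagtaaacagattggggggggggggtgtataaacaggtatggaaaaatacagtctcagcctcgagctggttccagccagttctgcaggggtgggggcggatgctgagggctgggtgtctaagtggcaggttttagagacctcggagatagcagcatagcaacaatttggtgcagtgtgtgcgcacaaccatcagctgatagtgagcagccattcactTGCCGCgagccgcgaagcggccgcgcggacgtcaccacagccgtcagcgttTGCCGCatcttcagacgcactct
Nnat: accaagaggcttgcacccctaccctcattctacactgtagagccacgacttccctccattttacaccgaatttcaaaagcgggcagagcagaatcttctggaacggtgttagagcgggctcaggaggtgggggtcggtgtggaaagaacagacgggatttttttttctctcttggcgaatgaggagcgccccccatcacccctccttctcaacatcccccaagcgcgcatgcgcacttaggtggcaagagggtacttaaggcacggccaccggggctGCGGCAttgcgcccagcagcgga

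Peg3 and Usp29 are transcribed in opposite directions from neighbouring start sites 164 bases apart, and their windows share 263 bases. The Peg3 window at chr7:6730370-6730669 (minus strand) is shown with each of its 13 CpG in capitals, and it held no TGCCGC on either strand.
Peg3: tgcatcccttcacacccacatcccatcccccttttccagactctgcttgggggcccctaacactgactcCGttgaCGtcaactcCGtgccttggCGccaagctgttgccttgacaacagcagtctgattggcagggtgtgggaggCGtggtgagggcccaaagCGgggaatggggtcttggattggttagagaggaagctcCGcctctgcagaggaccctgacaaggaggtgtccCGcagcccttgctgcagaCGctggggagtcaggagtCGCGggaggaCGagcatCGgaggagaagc

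Several members are host transcripts of microRNAs, of which the mature sequences are shown with the seed, bases 2 to 8, in capitals. The examples lie within the silent H19 (miR-675-5p), the moderate Igf2 (miR-483-3p), the strong Mest (miR-335-5p) and the strong Rian (miR-370-3p), and on the strand opposite to the silent Rtl1 (miR-127-3p). The mature microRNAs were not measured in these libraries.
miR-675-5p: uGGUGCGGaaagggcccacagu
miR-483-3p: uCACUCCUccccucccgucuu
miR-335-5p: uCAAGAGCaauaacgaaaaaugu
miR-370-3p: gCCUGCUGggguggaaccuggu
miR-127-3p: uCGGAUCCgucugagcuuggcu

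Over all members, GENCODE mouse release 21 placed 119 annotated microRNA genes within the locus of the polycomb gene Sfmbt2, all on its strand. It placed 15 within Mirg (1 of them on the opposite strand), 7 within Rtl1 (6 on the opposite strand), 4 within Rian, 2 within Meg3 and 1 each within Igf2, H19, Usp29 and Mest. A further predicted microRNA gene lies where Blcap and Nnat overlap. Among the mature sequences found in the RefSeq table for the members, miR-453 and miR-496a-5p of Mirg shared the seed gguugcc. No microRNA of Sfmbt2 was among these sequences, so shared seeds within Sfmbt2 were not examined.

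Levels are given in FPKM, the authors' counts divided by gene length and by the total of the library, in the order of libraries 1, 2 and 3 of each group. By the mean of the 6 libraries, 18 of 46 members were strong (10 FPKM or more, 39.1%), 15 were moderate (1 to under 10 FPKM, 32.6%), 8 were low (0.1 to under 1 FPKM, 17.4%) and 5 were silent (under 0.1 FPKM, 10.9%). Among the 21556 protein-coding genes in the table, 20.2% were strong and 35.5% were silent, against 42.1% and 7.89% of the 38 protein-coding members. Of the 26 members known, in at least some tissues, as expressed mainly from the paternal allele 11 were strong, 7 moderate, 4 low and 4 silent, and of the 20 known as expressed from the maternal allele 7 were strong, 8 moderate, 4 low and 1 silent. In bulk RNA, fewer cells that use a gene and less RNA per cell cannot be told apart.

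**Figure D1:**
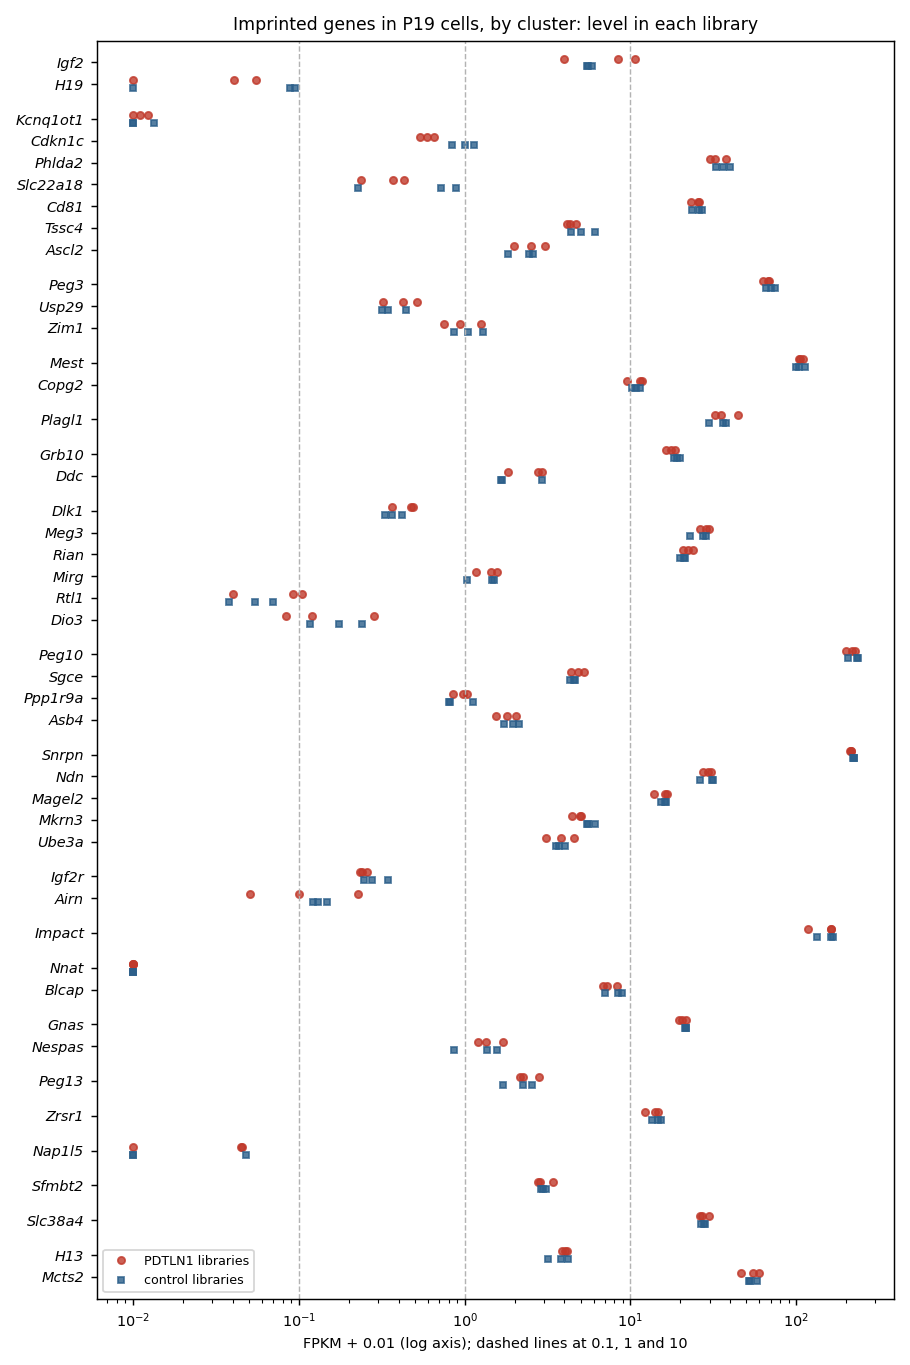
The level of each of the 46 imprinted genes in each library, in FPKM plus 0.01 on a log axis, with PDTLN1 libraries as circles above and control libraries as squares below, grouped by imprinted cluster. Peg10, Snrpn, Impact and Mest lay at or near 100 FPKM and above in all 6 libraries, and Nnat had 0 counts in all 6.

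The gene lengths behind the FPKM values, implied by count and FPKM, were 1.31 times (median) the annotated exonic length of the members, and in 13 members exceeded the whole annotated locus. With the exonic length of GENCODE mouse release 21 in place of the authors' length, a choice made after seeing the data, Igf2 (15.3) and Tssc4 (16.3) would be strong and Cdkn1c (1.08), Dlk1 (1.18) and Ppp1r9a (1.64) moderate, on the FPKM scale. The number of low members was then 5 instead of 8, and the other 41 members kept their class. Comparisons between libraries of 1 gene do not depend on the length. The ratios between genes given below use the authors' FPKM and do depend on it. With the exonic length Snrpn averaged 296 and Ndn 13.1, in place of 218 and 29.3 FPKM. Meg3 then averaged 38.3 and Dlk1 1.18, in place of 27.2 and 0.397 FPKM.

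The highest levels were in genes of 4 different clusters. Peg10, a retrotransposon-derived gene needed for the placenta, at chr6:4747306-4760517 (plus strand) in build GRCm38, had 227, 216 and 199.9 FPKM with PDTLN1, against 205, 236 and 233 FPKM in control. Snrpn, which encodes the spliceosomal protein SmN, at chr7:59982495-60140219 (minus strand), had 215, 212 and 213 FPKM with PDTLN1, against 224, 224 and 219.7 FPKM in control. Both were at about the 99th percentile of the 13836 tested genes by FPKM (99.2 and 99.2). Peg10 overlapped between the groups, whereas each PDTLN1 library was below each control library for Snrpn.

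Impact, which encodes an inhibitor of the translation regulator GCN2, had 162, 118 and 161 FPKM with PDTLN1, against 133, 167 and 161 FPKM in control. Mest, which encodes a protein of the hydrolase fold, at chr6:30723547-30748465 (plus strand), had 109, 104 and 105 FPKM with PDTLN1, against 99.2, 105 and 113 FPKM in control. Mest was among the steadiest members, and the low libraries of Impact were PDTLN1 library 2 and control library 1. Impact, Mest, Peg3, Mcts2, Plagl1 and Phlda2 also lay at or above the 90th percentile of tested genes, so that 8 members did in all.

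The Snrpn-Ube3a cluster, the region deleted in Prader-Willi and Angelman syndromes in humans, had no silent member. The paternally expressed MAGE family gene Ndn, encoding necdin, had 27.5, 30.6 and 29.3 FPKM with PDTLN1, against 31.1, 31.4 and 26.2 FPKM in control. Its relative Magel2 had 16.6, 16.2 and 13.9 FPKM with PDTLN1, against 16.1, 16.5 and 15.3 FPKM in control. The groups overlapped for both, with Snrpn at 6.92 to 8.40 times the FPKM of Ndn in single libraries.

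Mkrn3, a makorin RING finger gene expressed from the paternal allele, had 5.03, 4.94 and 4.41 FPKM with PDTLN1, against 6.09, 5.47 and 5.55 FPKM in control. Ube3a, the ubiquitin ligase that is maternal mainly in neurons, had 3.79, 4.52 and 3.08 FPKM with PDTLN1, against 3.99, 3.69 and 3.54 FPKM in control. Mkrn3 was lower in each PDTLN1 library than in each control library, and Ube3a overlapped. Ube3a shared 1803 exonic bases (8.74% of its exons) with the opposite-strand RNA Snhg14, which had a mean count of 6282, and part of the exons of Snrpn (27.3%) lay in a predicted same-strand gene with a mean count of 4589. How reads in such overlaps were assigned is not known.

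The Peg3 cluster put strong and low genes side by side. Peg3, a paternally expressed zinc finger gene at chr7:6703892-6730421 (minus strand), had 68.4, 67.5 and 62.8 FPKM with PDTLN1, against 65.4, 74.4 and 70.1 FPKM in control. Usp29, the divergent ubiquitin protease gene whose start site lies within the window shown for Peg3, had 0.311, 0.505 and 0.412 FPKM with PDTLN1, against 0.430, 0.337 and 0.306 FPKM in control. Per library, Peg3 was at 134 to 229.5 times the FPKM of Usp29, a range of under 2-fold.

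Control libraries 2 and 3 and PDTLN1 library 1 had the 3 highest levels of Peg3 and the 3 lowest of Usp29. Zim1, a maternally expressed zinc finger gene of the same cluster, sat just above the limit of 1 FPKM with 0.738, 1.24 and 0.926 FPKM in the PDTLN1 libraries and 1.04, 1.28 and 0.849 FPKM in the control libraries. Its groups overlapped.

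The Mest cluster held a second strong gene, just above the limit at a mean of 10.8 FPKM. Copg2, which encodes a subunit of the COPI vesicle coat and overlaps the end of Mest on the other strand, had 11.7, 9.57 and 11.4 FPKM with PDTLN1, against 10.3, 10.8 and 11.4 FPKM in control. The 2 genes shared 912 exonic bases, 17.8% of those of Copg2 and 23.1% of those of Mest. The mean count was 8226 for Mest and 816 for Copg2, so part of the Copg2 count could be Mest reads if strand was ignored. Mest was at 9.26 to 10.8 times the FPKM of Copg2. This ratio was among the narrowest of the neighbour pairs compared.

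In the Peg10 cluster the neighbours of Peg10 were far lower. Sgce, epsilon-sarcoglycan, starts next to Peg10 on the other strand and had 4.78, 5.25 and 4.36 FPKM with PDTLN1, against 4.62, 4.54 and 4.34 FPKM in control. Peg10 was at 41.2 to 53.8 times the FPKM of Sgce. The maternally expressed Ppp1r9a, which encodes neurabin, was low with 0.795 to 1.11 FPKM over all libraries, and Asb4, a SOCS box gene, was moderate with 1.54 to 2.11 FPKM.

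In the Dlk1-Dio3 cluster the noncoding RNAs, known as maternally expressed, were moderate or strong: Meg3, at chr12:109541001-109571726 (plus strand), had 29.7, 26.3 and 28.6 FPKM with PDTLN1, against 22.9, 28.5 and 27.3 FPKM in control. Rian, a host of small nucleolar RNAs, had 20.7, 22.2 and 23.7 FPKM with PDTLN1, against 21.4, 21.02 and 19.9 FPKM in control. Mirg, the host of many microRNAs, had 1.17, 1.55 and 1.43 FPKM with PDTLN1, against 1.48, 1.46 and 1.03 FPKM in control. The groups overlapped for all 3 RNAs.

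The protein-coding genes of the cluster, known as paternally expressed, were low or silent by the authors' FPKM. Dlk1, a transmembrane ligand related to Notch ligands, had 0.356, 0.476 and 0.465 FPKM with PDTLN1, against 0.319, 0.407 and 0.357 FPKM in control. Rtl1, a retrotransposon-derived gene used in the placenta, had 2, 6 and 7 counts with PDTLN1 and 4, 3 and 2 counts in control, and Dio3, the deiodinase that inactivates thyroid hormone, had 4, 11 and 3 counts with PDTLN1 and 6, 4 and 9 counts in control, and both were too low to be tested. Meg3 was at 55.2 to 83.6 times the FPKM of Dlk1, Meg3 at 1.07 to 1.43 times that of Rian, and Rian at 14.3 to 19.3 times that of Mirg.

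In the Igf2-H19 cluster the growth factor was present and the noncoding RNA was not. Igf2, the fetal insulin-like growth factor at chr7:142650766-142666816 (minus strand), had 3.95, 10.7 and 8.37 FPKM with PDTLN1, against 5.43, 5.84 and 5.52 FPKM in control. H19, the maternally expressed noncoding RNA at chr7:142575529-142578143 (minus strand), had 0, 2 and 3 counts with PDTLN1 and 5, 0 and 5 counts in control, 15 counts in all, and was not tested. Of the exonic bases of Igf2, 62.8% also belong to an annotated same-strand gene for which no count was used here. PDTLN1 libraries 2 and 3 were above all control libraries for Igf2, and PDTLN1 library 1 was below them.

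The neighbouring Kcnq1ot1 domain ran from silent to strong. The noncoding RNA Kcnq1ot1, which silences the domain on the paternal copy, had 2, 0 and 1 counts with PDTLN1 and 3, 0 and 0 counts in control, 6 in all. Phlda2, a pleckstrin homology domain gene that restrains placental growth, had 37.9, 30.3 and 32.3 FPKM with PDTLN1, against 32.99, 39.8 and 36.05 FPKM in control. Cd81, a tetraspanin gene at the edge of the domain, had 23.1, 25.9 and 25.5 FPKM with PDTLN1, against 26.8, 26.00 and 23.6 FPKM in control. For both strong genes the groups overlapped.

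Ascl2, a transcription factor of trophoblast and stem cells, ranged over 1.81 to 3.03 FPKM, and Tssc4, a gene linked to assembly of the spliceosome, over 4.15 to 6.08 FPKM. Cdkn1c, which encodes the cell cycle inhibitor p57, had 0.582, 0.524 and 0.640 FPKM with PDTLN1, against 1.12, 0.997 and 0.826 FPKM in control. Slc22a18, a transporter gene, had 0.362, 0.229 and 0.419 FPKM with PDTLN1, against 0.216, 0.879 and 0.706 FPKM in control, from 6 to 25 counts a library. The PDTLN1 libraries lay below all control libraries for Cdkn1c, and control library 1 was the lowest of all 6 for Slc22a18. Cdkn1c shares 30.7% of its exonic bases with an annotated antisense RNA.

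The Igf2r-Airn cluster was low throughout. Igf2r, the receptor that clears IGF2, had 0.247, 0.223 and 0.229 FPKM with PDTLN1, against 0.265, 0.336 and 0.239 FPKM in control. Airn, the noncoding RNA that silences Igf2r on the paternal copy in most mouse tissues, had 2, 12 and 5 counts with PDTLN1 and 6, 7 and 6 counts in control. Airn was untested, and its lowest and highest libraries were both PDTLN1 libraries, 1 and 2.

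Of the genes that modulate growth factor signals, Grb10, an adaptor that inhibits the insulin and IGF receptors, was strong with 18.6, 16.5 and 17.6 FPKM in the PDTLN1 libraries and 18.2, 19.9 and 19.2 FPKM in the control libraries. Its neighbour Ddc, the decarboxylase that makes dopamine and serotonin, was moderate with 1.82, 2.74 and 2.91 FPKM in the PDTLN1 libraries and 2.93, 1.68 and 1.64 FPKM in the control libraries. Plagl1, a zinc finger transcription factor that regulates other imprinted genes, was strong with 44.3, 32.5 and 35.2 FPKM in the PDTLN1 libraries and 29.9, 36.1 and 37.5 FPKM in the control libraries. The groups overlapped for all 3, and Ddc was high in PDTLN1 libraries 2 and 3 and control library 1, those on the same side of the first principal component. Grb10 was at 6.01 to 11.9 times the FPKM of Ddc.

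In the Gnas cluster, Gnas, which encodes the stimulatory G protein subunit, had 21.5, 19.6 and 20.5 FPKM with PDTLN1, against 21.2, 21.7 and 21.7 FPKM in control. Gnas has several start sites, and these values do not separate its transcripts. The antisense RNA Nespas had 1.70, 1.20 and 1.33 FPKM with PDTLN1, against 0.857, 1.36 and 1.56 FPKM in control. Gnas and Nespas share 988 exonic bases on opposite strands, 31.4% of those of Nespas, so part of the Nespas count could be Gnas reads if strand was ignored. Gnas was at 12.6 to 24.8 times the FPKM of Nespas, and the groups overlapped for both.

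The genes nested within hosts did not share a level. Mcts2 had 46.3, 59.8 and 55.2 FPKM with PDTLN1, against 58.1, 52.3 and 51.8 FPKM in control, and its host H13, the signal peptide peptidase gene, had 4.03, 3.85 and 4.16 FPKM with PDTLN1, against 3.19, 3.78 and 4.16 FPKM in control. Per library Mcts2 was at 11.5 to 18.2 times the FPKM of H13. Nnat, which encodes the neuronal proteolipid neuronatin, had 0 counts in every library, below a limit of 3 counts a library or 0.257 to 0.289 CPM, while its host Blcap had 8.28, 6.83 and 7.23 FPKM with PDTLN1, against 6.997, 8.40 and 8.91 FPKM in control. Both active hosts overlapped between the groups.

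Nap1l5, a nucleosome assembly protein relative, had 3 counts in all libraries together. Zrsr1, related to a splicing factor, had 14, 14.7 and 12.3 FPKM with PDTLN1, against 13.5, 14.6 and 15.2 FPKM in control, and Peg13, a noncoding RNA within Trappc9, ranged over 1.70 to 2.79 FPKM. Counts of Mcts2 and Zrsr1 are uncertain, since reads could also match the parent genes Mcts1 (12.96 FPKM with PDTLN1 and 12.2 FPKM in control) and Zrsr2 (7.42 FPKM with PDTLN1 and 7.28 FPKM in control). Slc38a4, an amino acid transporter gene, was strong with 29.6, 26.2 and 26.9 FPKM in the PDTLN1 libraries and 26.8, 27.9 and 28.3 FPKM in the control libraries, and the polycomb gene Sfmbt2 was moderate at 2.78 to 3.38 FPKM. For all tested genes of this group the PDTLN1 and control libraries overlapped.

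Most members differed little between the 6 libraries. In 28 of the 39 members with enough counts to be tested, the highest FPKM was under 1.5 times the lowest, and the widest ratio was 4.07, for Slc22a18. The SD of log2 CPM over the 6 libraries was 0.0373 to 0.709 with a median of 0.161, against a median of 0.156 over all tested genes. Because this SD falls with the level, each was divided by the median SD of the 501 genes nearest in level. The ratio was above 1 in 24 of 39 members (61.5%) and in 50.1% of all tested genes, with a median of 1.12 for the members.

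**Figure D2:**
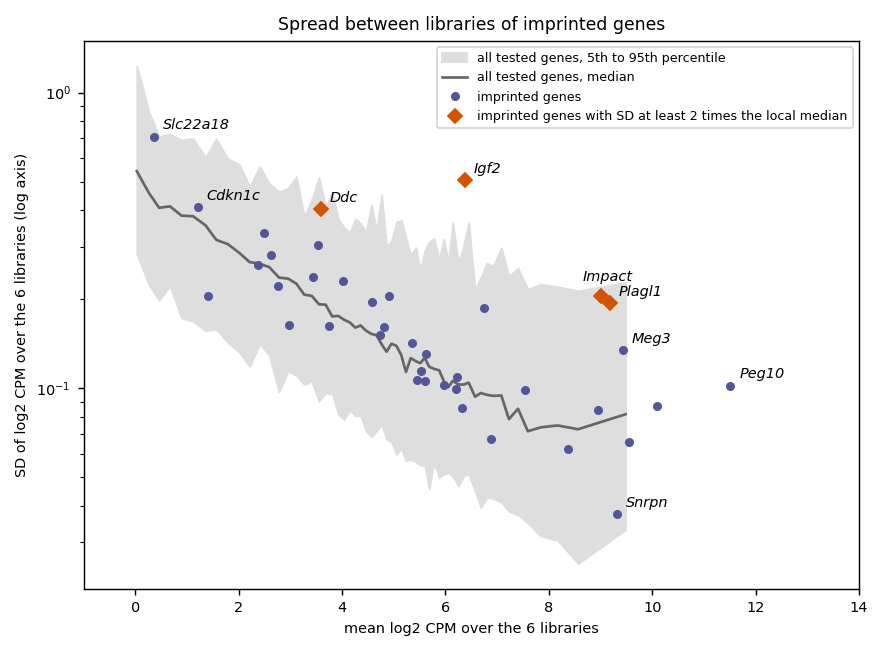
SD of log2 CPM over the 6 libraries (log axis) against the mean log2 CPM, for the 39 tested imprinted genes as points and all tested genes as the median line and the band between the 5th and 95th percentiles of 60 level bins. Diamonds mark Igf2, Impact, Plagl1 and Ddc, whose SD was at least 2 times the local median, and Snrpn lies low with an SD of 0.0373.

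At least 2 times the local median was reached by 4 of 39 members (10.3%) and by 8.68% of all tested genes. Igf2 stood out with an SD of 0.505, 4.91 times the local median, and its spread lay in the PDTLN1 libraries: 7.68 ± 3.43 FPKM with PDTLN1 and 5.60 ± 0.220 FPKM in control (SD, n = 3 each). Impact followed at 2.65 times, with 147 ± 25.3 FPKM with PDTLN1 and 154 ± 18.3 FPKM in control. Plagl1 reached 2.51 times, with 37.3 ± 6.18 FPKM with PDTLN1 and 34.5 ± 4.02 FPKM in control, and Ddc 2.06 times, with 2.49 ± 0.590 FPKM with PDTLN1 and 2.08 ± 0.736 FPKM in control. For Impact and Plagl1 the 3 highest libraries were PDTLN1 library 1 and control libraries 2 and 3, and for Ddc these were the 3 lowest. They are the libraries on 1 side of the first principal component. For Impact, however, PDTLN1 library 3 (161.2 FPKM) was nearly level with control library 3 (161.4 FPKM). Only PDTLN1 library 2 and control library 1 stood apart for Impact, both low. For Plagl1, control library 2 (36.1 FPKM) lay only just above PDTLN1 library 3 (35.2 FPKM). Among Impact, Plagl1 and Ddc, only Ddc had a clear gap between the sides of the component. Igf2 was ordered otherwise, with PDTLN1 libraries 2 and 3 the highest and PDTLN1 library 1 the lowest.

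Snrpn was the steadiest member, with an SD of 0.0373, 0.482 times the local median. Other strong members with an SD below the local median were Magel2 (0.956 times), Zrsr1 (0.939 times), Ndn (0.868 times), Gnas (0.853 times), Cd81 (0.842 times), Mest (0.846 times) and Slc38a4 (0.706 times). Taken around the group means in place of the overall mean, the SD moved by more than 1.5 times for Cdkn1c (0.173), Mkrn3 (0.0960) and Snrpn (0.0164), the 3 members whose groups did not overlap. A gap between groups by itself lowers the SD around their means, so this adds no support for the gap.

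**Figure D3:**
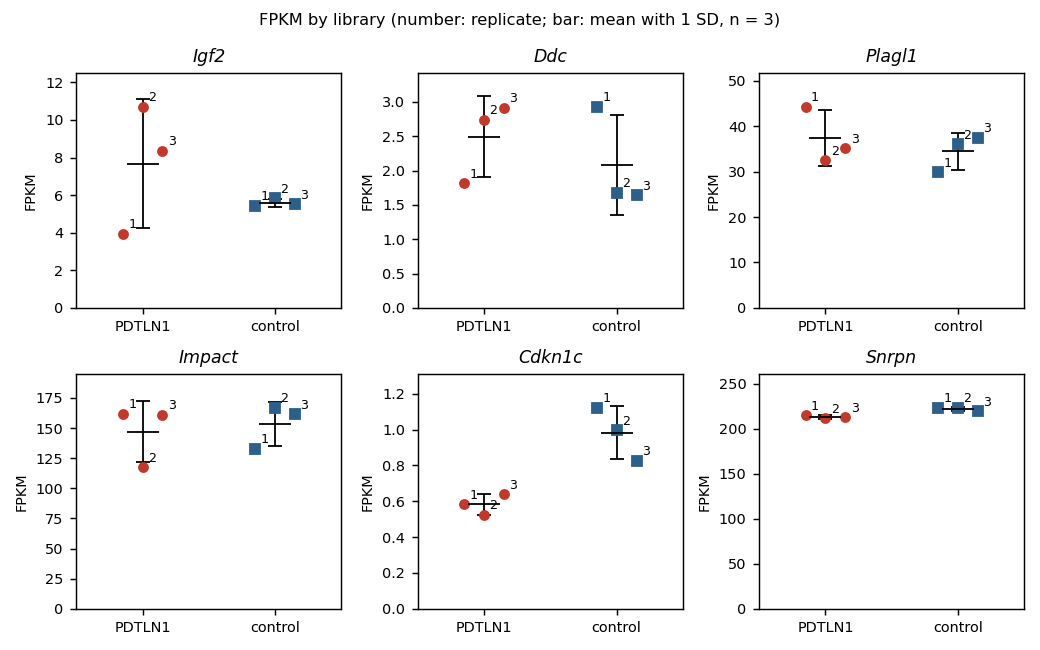
FPKM of 6 imprinted genes in each PDTLN1 library (left) and each control library (right), numbered by replicate, with the mean and 1 SD (n = 3 each). The PDTLN1 values of Igf2 spread from 3.95 to 10.7 FPKM while its control values lay close together, and the groups do not overlap for Cdkn1c and Snrpn.

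PDTLN1 was compared with control to ask which genes the peptide moved. None of the 39 tested members passed edgeR's quasi-likelihood test at an adjusted p of 0.05, against 3 of 13836 tested genes, all higher (0.0217%), and DESeq2 called 0 members and 14 of 12491 genes (0.112%). An unadjusted p under 0.05 was reached by 1 of 39 members (2.56%), Cdkn1c, which was lower, and by 3.99% of all tested genes (2.3% higher and 1.69% lower). The groups did not overlap in 3 of 39 members (7.69%) and in 9.79% of all tested genes (4.81% higher and 4.98% lower). These shares are no higher than the background. All 3 members, Cdkn1c, Mkrn3 and Snrpn, were lower with PDTLN1.

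The fold changes of the members were small. The log2 fold change of PDTLN1 over control was below 0 in 21 and above 0 in 18 members, with a median of -0.011, against -0.00087 over all tested genes, and 36 of 39 lay within 0.3 of 0. The extremes were Slc22a18 (log2 fold change -0.84, SE 0.50, unadjusted p = 0.131) and Igf2 (log2 fold change 0.45, SE 0.36, unadjusted p = 0.265). Members had a median SE of 0.126. The lowest adjusted p of a member was 0.989 with edgeR.

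**Figure D4:**
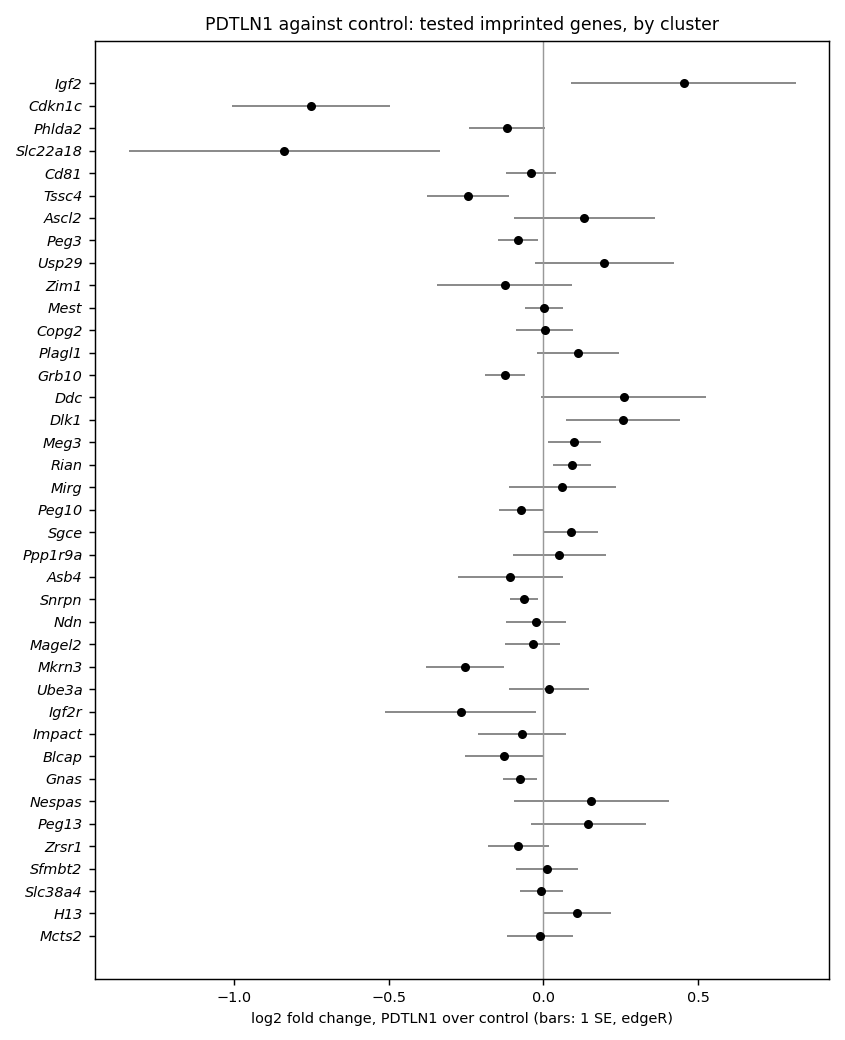
The log2 fold change of PDTLN1 over control with 1 SE (edgeR) for the 39 tested imprinted genes, in order of cluster. The points gather within 0.3 of 0 except Igf2, Cdkn1c and Slc22a18, and no gene passed the adjusted threshold.

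Cdkn1c had the smallest unadjusted p among the members. It had 17, 17 and 21 counts with PDTLN1 and 33, 30 and 26 counts in control, and 0.582 ± 0.0576 FPKM with PDTLN1 and 0.982 ± 0.148 FPKM in control (SD, n = 3 each), and it did not pass (log2 fold change -0.75, SE 0.26, unadjusted p = 0.0167). Leaving out 1 library gave -0.86 to -0.65 on the log2 scale. Beside it, the summed level of the 8 trophoblast markers was 4.63 to 4.98 FPKM with PDTLN1 and 5.65 to 7.37 FPKM in control, of which Prl3d1 and Tpbpa had 0 counts in every library, and Cdx2 was the marker whose groups did not overlap. Among the 8 pluripotent markers, the summed level was 914 to 966 FPKM with PDTLN1 and 972 to 1006 FPKM in control, also without overlap. Pou5f1 made up the largest part of this sum. By log2 fold change, 2 of the 7 tested pluripotent markers were above and 5 below 0. Pou5f1 and Utf1 (log2 fold change -0.38, SE 0.092, unadjusted p = 0.00248) were the markers whose own groups did not overlap, both lower with PDTLN1. The part of either in the result was not tested.

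Mkrn3 averaged 4.79 ± 0.336 FPKM with PDTLN1 and 5.70 ± 0.335 FPKM in control (log2 fold change -0.25, SE 0.13, unadjusted p = 0.0763). Snrpn averaged 213 ± 1.85 FPKM with PDTLN1 and 222 ± 2.24 FPKM in control (log2 fold change -0.063, SE 0.046, unadjusted p = 0.209), a gap of small size between tight groups. After Cdkn1c and Mkrn3, the smallest unadjusted p belonged to Grb10 (log2 fold change -0.12, SE 0.065, unadjusted p = 0.0904), Tssc4 (log2 fold change -0.24, SE 0.13, unadjusted p = 0.0977) and Slc22a18, whose values stand above. In these 3 genes the groups overlapped. At the other end Mest (log2 fold change 0.0016, SE 0.060, unadjusted p = 0.980) and Copg2 (log2 fold change 0.0040, SE 0.093, unadjusted p = 0.966) differed least.

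Igf2 depended on single libraries. Without PDTLN1 library 1 its log2 fold change was 0.76 (edgeR adjusted p = 0.0733), and without PDTLN1 library 2 it was 0.14. Without both libraries numbered 1 it was 0.74, and edgeR gave an adjusted p of 0.0505 where 91 genes (0.652%) passed. In that fit the remaining PDTLN1 libraries lie on 1 side of the first principal component and the remaining control libraries on the other. Treatment and this component cannot be told apart there. The adjusted p of Igf2 spanned 0.0505 to 1.00 across all alternatives. The log2 fold change of Ddc was 0.26 over all 6 libraries, 0.59 without control library 1 and 0.76 without both libraries numbered 1 (edgeR adjusted p = 0.0764). Slc22a18 was -1.23 without control library 1 and -0.47 without control library 2. Of the strong members, Impact was 0.068 without PDTLN1 library 2 and Plagl1 -0.033 without PDTLN1 library 1, signs opposite to those over all libraries (-0.069 and 0.11).

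Of the genes that set and keep imprints, none passed the test. Of 30 listed factors 27 had enough counts to be tested (not Dppa3, Ctcfl and Zfp42), 12 above and 15 below 0, and their median log2 fold change was -0.021. The highest were Trim28, the cofactor of ZFP57 (84.1 FPKM with PDTLN1 and 85.7 FPKM in control), the methyltransferase gene Dnmt1 (77.8 FPKM with PDTLN1 and 76.9 FPKM in control) and its partner Uhrf1 (62.7 FPKM with PDTLN1 and 64.6 FPKM in control). The smallest unadjusted p belonged to Dnmt3l, a cofactor of new methylation (10, 9 and 16 counts with PDTLN1 and 14, 22 and 22 counts in control; log2 fold change -0.78, SE 0.34, unadjusted p = 0.0485), Dnmt3b (log2 fold change -0.15, SE 0.067, unadjusted p = 0.0524) and Ctcf (log2 fold change -0.097, SE 0.052, unadjusted p = 0.0954). The groups did not overlap in 3 of 27 factors (11.1%), Dnmt3b, Ctcf and Mbd3, all lower with PDTLN1, against 9.79% of all tested genes, a share near this background.

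The imprint reader Zfp57 spread more between libraries than any member, a gene singled out after its values were seen. It had 11.3, 3.80 and 4.46 FPKM with PDTLN1, against 3.56, 10.2 and 11.6 FPKM in control (log2 fold change -0.38, SE 0.66, unadjusted p = 0.590), with an SD 7.51 times the local median. It was high in PDTLN1 library 1 and control libraries 2 and 3, the libraries with the 3 lowest values of Ddc. The polycomb gene Suz12, also chosen after its values were seen, was low in PDTLN1 library 2 and control library 1, with 50.1, 30.4 and 51.03 FPKM with PDTLN1, against 28.5, 48.9 and 48.1 FPKM in control.

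Partners of IGF2 were tested in 16 of 19 cases, 10 above and 6 below 0, and the median of their log2 fold changes was 0.046. The highest were Lin28a, an RNA-binding protein of pluripotent cells (203 FPKM with PDTLN1 and 204 FPKM in control), the binding protein gene Igfbp2 (192 FPKM with PDTLN1 and 188 FPKM in control) and the RNA-binding Igf2bp1 (89.7 FPKM with PDTLN1 and 87.1 FPKM in control). Igf2bp2, which binds Igf2 mRNA, had 14.9, 15.4 and 14.3 FPKM with PDTLN1, against 13.04, 12.8 and 11.1 FPKM in control and was above control in each PDTLN1 library (log2 fold change 0.27, SE 0.073, unadjusted p = 0.00474). Igf1r, the receptor of IGF2, and Irs2, its adaptor, also did not overlap, being higher with PDTLN1, with unadjusted p of 0.0862 and 0.0950, and Irs1 had 0.0851. Without overlap were thus 3 of 16 tested partners (18.8%), all higher, against 9.79% of all tested genes in either direction and 4.81% higher. None passed after adjustment, and Igfbp1 had 0 counts.

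Imprinted genes outside the panel were quieter. Of 35 listed, 34 were in the table, 20 were tested, and Ins2, Slc22a2, Tfpi2 and Zim3 had 0 counts in all libraries. The tested genes lay 13 above and 7 below 0, the median log2 fold change being 0.083, and the groups did not overlap in 6 of 20 (30%), against 9.79% of all tested genes. Klf14 (1.06), Peg12 (0.28) and Gab1 (0.17) were the 3 higher with PDTLN1, and Begain (-0.36), Casd1 (-0.22) and Dhcr7 (-0.11) the 3 lower, by log2 fold change. The highest levels in this list were in Nap1l4, next to the Kcnq1ot1 domain (68.8 FPKM with PDTLN1 and 65.9 FPKM in control), Zdbf2 (20.03 FPKM with PDTLN1 and 18.3 FPKM in control) and Dhcr7, an enzyme of cholesterol synthesis (11.2 FPKM with PDTLN1 and 12.03 FPKM in control). The transcription factor gene Klf14 had the smallest unadjusted p, with 14, 12 and 11 counts with PDTLN1 and 4, 5 and 8 counts in control (log2 fold change 1.06, SE 0.41, unadjusted p = 0.0290), and did not pass.

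The hosts and parents of the nested genes formed a further list, which was not separate from the others. Blcap and H13 are also members, and Kcnq1 is also among the imprinted genes outside the panel. Of 9 listed 8 were tested, 4 above and 4 below 0, with the median at -0.0026 on the log2 scale, no unadjusted p under 0.05 and no group without overlap. Nap1l1, the relative of Nap1l5, was the highest with 155 FPKM with PDTLN1 and 158 FPKM in control, and the silent Nap1l5 lay in a host, Herc3, at 3.23 FPKM with PDTLN1 and 3.35 FPKM in control. The host of Zrsr1, Commd1, had 7.55 FPKM with PDTLN1 and 7.93 FPKM in control, and that of Peg13, Trappc9, 2.88 FPKM with PDTLN1 and 2.66 FPKM in control.

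Markers of other cell types were summed as for the trophoblast list. Summed levels were 2.56 to 3.06 FPKM with PDTLN1 and 2.70 to 3.01 FPKM in control for primitive endoderm, and 48.5 to 56.7 FPKM with PDTLN1 and 51.0 to 57.8 FPKM in control for neural cells. They were 5.88 to 6.58 FPKM with PDTLN1 and 5.82 to 7.41 FPKM in control for blood. The fibroblast list was 7.15 to 8.54 FPKM with PDTLN1 and 8.55 to 9.08 FPKM in control, without overlap but nearly touching. The groups overlapped in each of its 4 tested markers, and the part of this list in the results was not tested. Of 3 trophoblast, 2 primitive endoderm, 5 neural, 4 fibroblast, 3 blood and 7 pluripotent markers tested, none passed.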

How the data were processed

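RNA of P19 cells was sequenced after Illumina TruSeq preparation, per the labels' protocols. The deposited gene counts are whole numbers, not normalized, per the file headers and values. The deposited FPKM are tied to the counts, since each of the 15678 genes counted in every library had 1 implied length within 0.1%, so FPKM served for levels and counts for tests. Bowtie 0.12.2 and the builds mm8 and mm9 appear in the submitters' processing notes with no role. How genes were counted, with which annotation and use of strand, is not given in the sources used here. Positions matched GENCODE mouse release 21 (GRCm38) exactly for 80.8% of the 34267 genes found in that release. They matched exactly for 30 of 46 members and overlapped for all 46, so coordinates are in GRCm38.

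Samples were grouped by their treatment label, and columns by title. With edgeR 4.0.16 in R 4.3.3, filterByExpr kept 13836 genes, TMM scaled the libraries, and robust glmQLFit with glmQLFTest were run two-sided, with Benjamini-Hochberg adjustment over all tested genes (threshold 0.05). SDs used log2 CPM with a prior count of 2. The replicate numbers were not in the model. Steps were tested on simulated data. Level classes and promoter counts are descriptions.

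The members and lists were chosen with earlier results of these data known. Every member was placed in its cluster. Values per library were given for strong members, those with the smallest or largest p, those with an SD at least 2 times the local median, and neighbour pairs. Of other lists, up to 3 genes with the highest level and up to 3 with the smallest p were named. The alternatives were DESeq2 1.42.0 and its size factors, library totals, other filters, a replicate block, leaving out libraries, other level limits and a threshold of 0.1.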

Additional observations from a re-analysis of the deposited data

How the results depend on the processing

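No member passed the threshold of 0.05 under any alternative, and none passed 0.1 in the fit over all 6 libraries. Of the edgeR adjusted p-values under the other alternatives, 3 lay under 0.1: 0.0733 for Igf2 without PDTLN1 library 1, and 0.0505 for Igf2 and 0.0764 for Ddc without both libraries numbered 1. Without both libraries numbered 1, treatment and the first principal component cannot be told apart. Over all genes, 3 passed; the DESeq2 Wald test gave 14, no filter beyond 1 count in 1 library gave 8, leaving out 1 library gave 2 to 13, and leaving out both libraries numbered 1 gave 91. The replicate number as a block left 1 gene. Taken over all tested genes, same-numbered libraries did not deviate together (correlations of -0.36, -0.14 and -0.10). The labels do not say what the numbers mark, so whether libraries were paired is not known. With the exonic length in place of the authors' length the low class held 5 members in place of 8, because the lengths differ, and no other class count moved by over 1.5 times. Of 506 log2 fold changes under alternatives, 45 changed sign, in 17 of 39 members, and none passed 0.05. The cause was not tested. Leaving out 1 library gave -0.094 to 0.0059 for Cd81, -0.030 to 0.28 for Ascl2, -0.34 to 0.036 for Zim1, -0.042 to 0.053 for Mest, -0.054 to 0.088 for Copg2, -0.033 to 0.20 for Plagl1, -0.093 to 0.17 for Mirg, -0.036 to 0.23 for Ppp1r9a, -0.11 to 0.024 for Ndn, -0.086 to 0.043 for Magel2, -0.13 to 0.15 for Ube3a, -0.16 to 0.068 for Impact, -0.056 to 0.34 for Nespas, -0.084 to 0.070 for Sfmbt2, -0.065 to 0.029 for Slc38a4 and -0.095 to 0.081 for Mcts2. Without both libraries numbered 1 the values were 0.044 for Cd81, 0.020 for Zim1, -0.068 for Mest, -0.093 for Copg2, -0.13 for Plagl1, -0.035 for Meg3, -0.042 for Ppp1r9a, 0.049 for Ndn, -0.22 for Nespas, -0.060 for Sfmbt2 and 0.13 for Mcts2. At this depth 7 of 46 members were too low to test.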
